A study of Mus musculus with 2 samples.

Results

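The miR-26 genes of the mouse are Mir26a-1, Mir26a-2 and Mir26b, each in an intron of a gene for a small phosphatase, Ctdspl, Ctdsp2 and Ctdsp1 respectively. They were taken by gene name, as 3 of the 1973 miRNA genes counted in the deposited tables, without use of any measured value. The study sequenced small RNA (microRNA-seq) from neural tube of mouse embryos at day 13.5, in 2 libraries numbered as biological replicates. Both came from strain B6NCrl, from pooled male and female embryos, with no treatment or altered allele named in the labels. There was 1 condition, so the data give the level of each gene, the ratios between the genes, and the difference between the libraries. Each library is a pool of embryos, and in bulk tissue fewer cells of a type and less RNA per cell cannot be told apart.

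MiRNAs are short RNAs cut from a hairpin, and the seed, bases 2 to 8 of the mature strand, pairs with sites in target mRNAs. The Ctdsp phosphatases act on the C-terminal domain of RNA polymerase II and work with REST, the repressor that keeps neuronal genes silent outside neurons. MiR-26 is processed from the introns of these phosphatase genes and is known as a repressor of Ctdsp2 in the neural lineage, so that host and miRNA act on the same pathway.

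The mature sequences are shown because they decide which gene a read can be assigned to. RefSeq (GRCm38.p6) held all 3 genes, and its hairpins were identical to the GENCODE M21 transcripts. The capitals mark the seed.
miR-26a-5p (Mir26a-1 and Mir26a-2): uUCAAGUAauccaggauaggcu
miR-26b-5p (Mir26b): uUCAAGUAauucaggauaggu
miR-26a-1-3p: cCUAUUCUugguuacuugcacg
miR-26a-2-3p: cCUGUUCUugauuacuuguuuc
miR-26b-3p: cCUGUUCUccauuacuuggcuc
The 5p strands share the seed UCAAGUA, which no other of the 1679 mature names in the RefSeq table had. Counted from 1 at the 5′ end, miR-26b-5p differed from miR-26a-5p at 2 of 21 compared positions, C11U and C21U, and was 1 base shorter. The 3p strands fell into different seed groups. The seed CUAUUCU of miR-26a-1-3p was found in no other mature name, and miR-26a-2-3p and miR-26b-3p had CUGUUCU in common, also the seed of miR-6932-3p and miR-7039-3p. Between the 3p strands of the Mir26a copies, 6 of 22 positions differed, among them A4G in the seed.

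The hairpins are printed to show where the copies can and cannot be told apart, with both mature arms in capitals.
Mir26a-1: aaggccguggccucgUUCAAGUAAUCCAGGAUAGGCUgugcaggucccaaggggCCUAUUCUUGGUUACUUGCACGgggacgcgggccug
Mir26a-2: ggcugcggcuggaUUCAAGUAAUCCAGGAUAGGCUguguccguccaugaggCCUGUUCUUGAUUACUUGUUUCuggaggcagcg
Mir26b: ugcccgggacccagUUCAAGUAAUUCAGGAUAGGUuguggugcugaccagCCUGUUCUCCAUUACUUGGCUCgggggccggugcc
Both Mir26a hairpins contained the same stretch of 25 nt, positions 16 to 40 in Mir26a-1 and 14 to 38 in Mir26a-2. It covers the whole 5p strand and the first bases of the loop. Of the 69 windows of 22 nt in the Mir26a-1 hairpin, 4 occurred in another miRNA hairpin and 65 did not, and in Mir26a-2 the numbers were 4 and 59 of 63. All 64 windows of Mir26b were its own. Its longest stretch in common with Mir26a-1 was 11 nt, and with Mir26a-2 10 nt. A read that lies wholly in the 25-nt stretch matches both Mir26a genes, so its place of origin cannot be read from its sequence, whereas a read of either 3p strand or of miR-26b-5p matches a single hairpin.

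**Figure D1:**
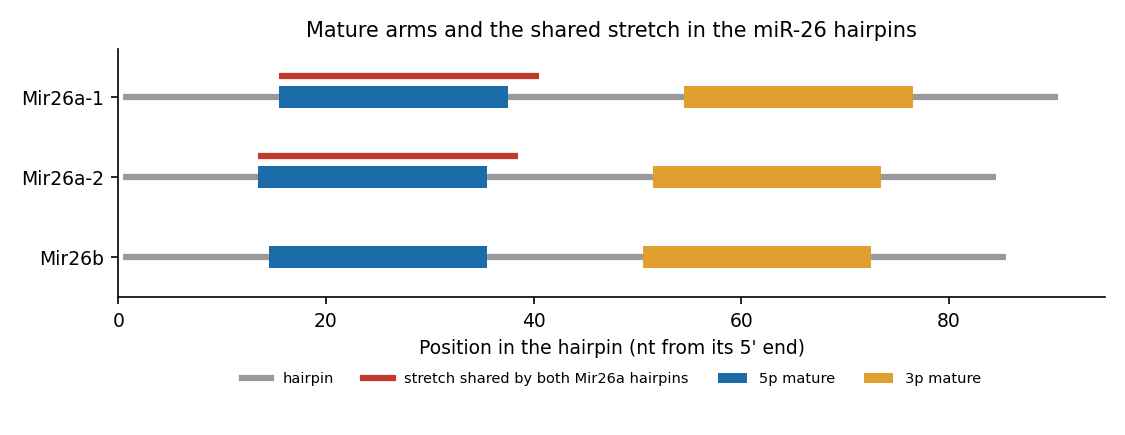
Map of the 3 miR-26 hairpins, with position in nt from the 5′ end of the hairpin on the x axis and 1 hairpin per row. Blue blocks are the 5p and yellow blocks the 3p mature strands, and the red bars show that the 25 nt common to Mir26a-1 and Mir26a-2 take in the whole 5p strand and none of the 3p strand.

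The genes lie on 3 chromosomes, on the same strand as their hosts, and M21 (GRCm38) gives no other gene that overlaps them. Mir26a-1 (ENSMUSG00000065513) is at chr9:119031796-119031885, plus strand, in intron 5 of the 8-exon coding transcript of Ctdspl. This intron is 3283 nt long, and the hairpin starts 1543 nt after the upstream exon. Mir26a-2 (ENSMUSG00000065430) is at chr10:126995530-126995613, plus strand, in intron 5 of the 8-exon coding transcript of Ctdsp2, 241 nt before the next exon. Mir26b (ENSMUSG00000065468) is at chr1:74394310-74394394, plus strand, in intron 4 of the 7-exon coding transcript of Ctdsp1, an intron of 564 nt. The host genes span 117546 nt (Ctdspl), 21259 nt (Ctdsp2) and 5777 nt (Ctdsp1). The nearest other miRNA gene of the tables was 1032366 nt from Mir26a-1 and 187690 nt from Mir26b. Mir26a-2 had Mir546 at 2827 nt, a gene with 2 and 1 counts that was looked up for its position after the tables were read. Host transcripts were not measured by these libraries.

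Mir26b was among the miRNA genes with the most counts in the neural tube libraries, while both Mir26a genes were counted at low levels. Replicate 1 had 67976 counts on Mir26b and replicate 2 had 65480. Scaled to CPM (counts per 1000000 counts on miRNA genes), this was 9684 and 11411 CPM, a mean of 10548 ± 1221 (SD, n = 2), or 1.05% ± 0.12 of all counts. Mir26b thus stood high in both libraries, at rank 18 in replicate 1 and 14 in replicate 2, and 16 by the mean. Ranks compare counted reads only, since reads that mapped to several places are on no gene. Mir26a-2 had 103 and 78 counts, which is 14.7 and 13.6 CPM with a mean of 14.1 ± 0.76. Mir26a-1 had 19 and 15 counts, which is 2.71 and 2.61 CPM with a mean of 2.66 ± 0.066. The 3 genes did not overlap in level in either library, and their order was Mir26b, Mir26a-2, Mir26a-1 in both. By the mean, Mir26a-2 ranked 288 and Mir26a-1 ranked 356, level with Mir6934. All 3 genes passed 10 counts in each library, as did 18.8% of the 1973 genes. None had an opposite-strand count. CPM was not divided by hairpin length; the hairpins are 84 to 90 nt long.

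**Figure D2:**
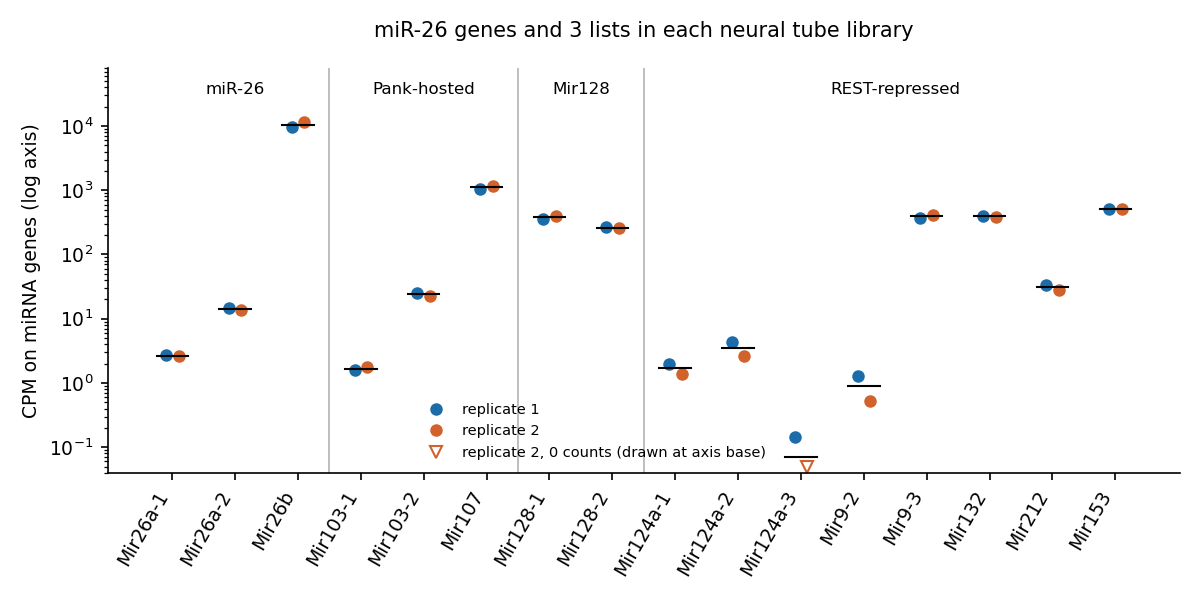
CPM on a log axis for the miR-26 genes and the members of 3 other lists, with 1 point per library and a bar at the mean of the 2 libraries; an open triangle at the base of the axis marks 0 counts. Mir26b stands near 10548 CPM and the Mir26a genes at 14.1 and 2.66 CPM, with the 2 libraries close together for each gene.

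Relative to the level, counting error was wider for the Mir26a genes than for Mir26b. The exact Poisson 95% interval of Mir26a-1 ran from 1.63 to 4.23 CPM in replicate 1 and from 1.46 to 4.31 in replicate 2. For Mir26a-2 it ran from 12.0 to 17.8 and from 10.7 to 17.0 CPM, and for Mir26b from 9611 to 9757 and from 11324 to 11499 CPM. The intervals of both libraries overlapped for the Mir26a genes and did not for Mir26b. They cover counting error only, since without molecular identifiers copies of 1 molecule cannot be told from separate ones.

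Within the family, Mir26b held 99.82% of 68098 counts (replicate 1) and 99.86% of 65573 counts (replicate 2). Mir26a-2 held 0.151% and 0.119%, and Mir26a-1 0.0279% and 0.0229%. The log2 ratio of Mir26b to the sum of the Mir26a genes was 9.12 in replicate 1 (exact 95% counting interval 8.87 to 9.39) and 9.45 in replicate 2 (9.17 to 9.77). The mean was 9.28 ± 0.24 (SD, n = 2), or 623-fold. The gap between the genes was therefore many times the spread of the libraries. Between the copies, the log2 ratio of Mir26a-1 to Mir26a-2 was -2.41 (-3.23 to -1.72) and -2.34 (-3.28 to -1.57), a mean of -2.37 ± 0.048. Mir26a-2 was thus 5.18-fold higher than Mir26a-1, with both intervals below 0.

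These ratios describe counted reads and not molecules of miR-26a and miR-26b. Reads that mapped to several places formed a class of their own in the tables, with 3921182 reads in replicate 1 and 3310889 in replicate 2, or 28.5% and 31.0% of the reads, and were on no gene. That class was 57.7 and 50.6 times the count of Mir26b. Reads of miR-26a-5p, which 2 genes encode identically, can be in it, and how many are was not tested. The counts of Mir26a-1 and Mir26a-2 therefore do not show that miR-26a was scarce. Each count also sums both arms of a hairpin, so the share of 5p and 3p strands was not measured. Whether mismatches were allowed in mapping is not given in the sources used here, and a read of miR-26a-5p that carried both C11U and C21U would read as miR-26b-5p.

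**Figure D3:**
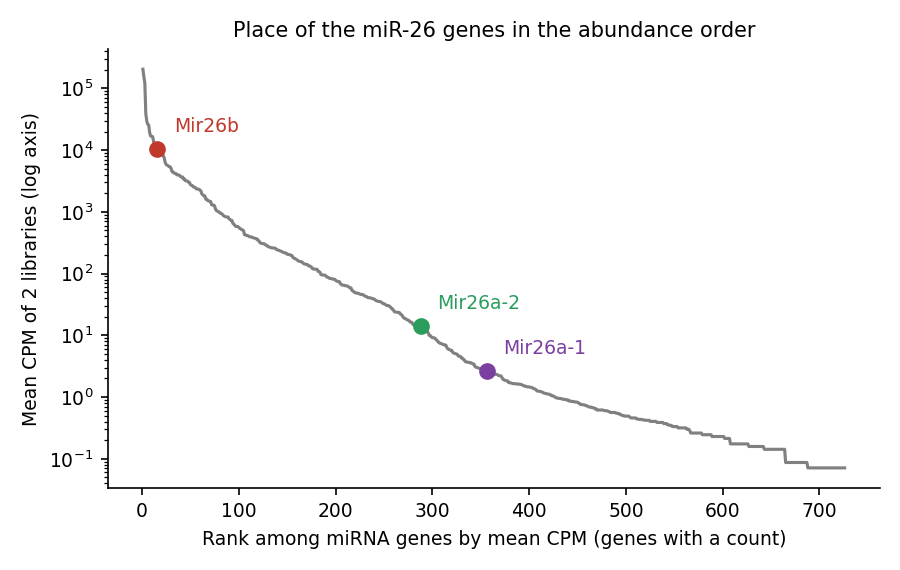
Mean CPM of the 2 libraries on a log axis against the rank of each miRNA gene with a count, drawn as a grey curve with the miR-26 genes as points. Mir26b sits at rank 16 on the steep start of the curve, Mir26a-2 at 288 and Mir26a-1 at 356 on its lower slope.

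The genes next to each miR-26 gene in mean CPM are listed to give the scale of its level. Around Mir26b these were Mir182 (11242 ± 5367 CPM) and Mir183 (11007 ± 2028) above, and Mir23b (9822 ± 1525) and Mir181c (9311 ± 550) below. Around Mir26a-2 they were Mir669e and Mir1249 above, and Mir551b and Mir190b below, from 13.2 to 14.5 CPM. Around Mir26a-1 they were Mir741 and Mir344c above, Mir6934 level with it but taken as below, and Mir215 below, from 2.57 to 2.73 CPM. For all 12 neighbours the range of the 2 libraries overlapped that of the miR-26 gene, which their choice by mean CPM makes likely. Compared within each library, Mir26b was above Mir181c both times (9684 against 8922 and 11411 against 9700 CPM). Mir669e was above Mir26a-2 both times, by few counts (104 against 103 and 81 against 78).

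Mir26b was somewhat higher in replicate 2, while the differences of the Mir26a genes were within counting error. With scaling by the trimmed mean of M values (TMM) and a pseudocount of 0.5, the log2 difference of replicate 2 from replicate 1 was 0.20 for Mir26b (exact 95% counting interval 0.19 to 0.22), or 1.15-fold. It was -0.14 for Mir26a-2 (-0.59 to 0.29) and -0.07 for Mir26a-1 (-1.16 to 0.97). Over the 371 genes that reached 10 counts in both libraries, the median difference was -0.0087 with an SD of 0.40, and 14.0% of these genes differed by more than 0.5 either way. None of the 3 miR-26 genes did. The difference of Mir26b exceeded its counting error, but its size was the median of all genes: 185 of the 371 had a smaller one. With 1 library on each side, it has no replicate check.

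**Figure D4:**
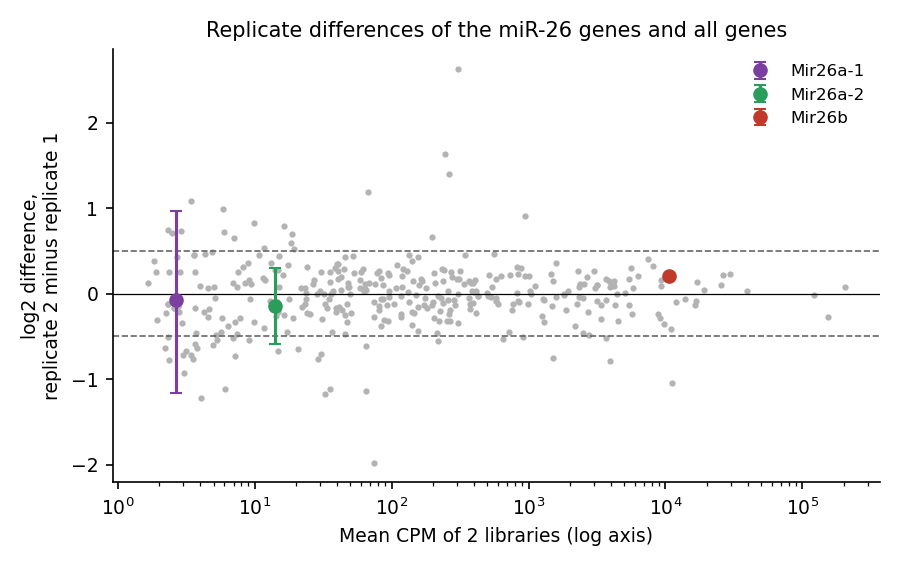
Log2 difference of replicate 2 minus replicate 1 against mean CPM on a log axis for 371 genes (grey), with the miR-26 genes in colour and their exact 95% counting intervals as bars. Dashed lines mark 0.5 either way; all 3 miR-26 points lie between them, and the interval of Mir26a-1 reaches past both.

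The libraries also differed in markers of other cell types. Over the 371 genes that reached 10 counts in both libraries, 48.2% were higher in replicate 2. Markers of mesenchyme summed to 8451 CPM in replicate 1 and 10425 in replicate 2, with 3 of 4 genes higher in replicate 2. Those of multiciliated cells summed to 386 and 951 CPM, with 3 of 3 higher. Most of this last rise was Mir449a, at 84.1 and 532 CPM. The neural markers summed to 8273 and 8437 CPM, with 2 of the 5 that passed 10 counts higher in replicate 2. Of the neural markers, Mir137 was at 5096 ± 101 CPM and Mir219a-2 at 2351 ± 12.9, while the Mir124a genes had at most 31 counts. The endothelial marker Mir126a was at 17134 and 16019 CPM, above the counts of the neural list. That list sums 8 of its 9 listed genes. Reads of strands that the Mir124a genes, or the Mir9 genes, have in common can be in the multimapping class. The neural sum can therefore be too low, and the order of endothelial and neural signal is not shown. Muscle markers summed to 119 CPM in replicate 1 and 378 in replicate 2, nearly all from Mir206 at 117 and 373 CPM. Mir133b had 7 and 29 counts, and Mir1a-1 had 3 and 0. Epithelial markers summed to 574 and 829 CPM, with 4 of 5 genes higher in replicate 2 and Mir200b lower. Lower in replicate 2 were the sums for hepatocytes (180 and 95.2 CPM), red cells (76.1 and 48.3) and leukocytes (256 and 237). Of the 2 hepatocyte genes, Mir122 had a log2 difference of -1.98 and Mir192 of 0.034. Of the red cell genes 3 of 3, and of the leukocyte genes 2 of 3, were lower in replicate 2. The part of these cell types in the level or the replicate difference of Mir26b was not tested.

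As likeness over only 2 libraries, the replicate difference of Mir26b was set against those of the 21 genes within a factor of 2 of its level. The nearest were Mir196b at 0.20, Mir143 at 0.17 and Mir93 at 0.15. Their levels were 6322, 5406 and 9294 CPM.

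The layout of the miR-26 family is matched by miR-103 and miR-107, which lie in introns of the pantothenate kinase (Pank) genes, as duplicate copies of Mir103 beside a single Mir107. Mir107 had 1112 ± 68.3 CPM, Mir103-2 23.9 ± 2.26 and Mir103-1 1.65 ± 0.12. Mir107 held 97.5% and 98.0% of the counts of its family. Its log2 ratio to the summed Mir103 copies was 5.29 in replicate 1 and 5.59 in replicate 2, lower in each library than the 9.12 and 9.45 of Mir26b. Mir26b was 9.46-fold above Mir107 (log2 ratio 3.24 ± 0.079). The Mir128 copies, in introns of R3hdm1 and Arpp21, were at 380 ± 28.4 and 259 ± 5.95 CPM, far above the counts on the Mir26a copies. The Mir103 copies have miR-103-3p in common and the Mir128 copies miR-128-3p. Reads of these strands can be in the multimapping class, as for miR-26a-5p. The values of these families therefore compare counted reads and not levels of the miRNAs.

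The counts on the Mir26a genes were low among sets of gene copies that all passed 10 counts in each library. Of the genes in the tables, 869 matched the RefSeq table by symbol, and among these 37 sets had a mature name in common; copies under other symbols, such as the Mir124a genes, are not in this comparison. The counts of a set sum both arms and leave out multimapping reads. In 19 of the sets every copy passed 10 counts in each library. The Mir26a genes summed to 16.8 CPM, which ranked 17 among those 19 and 20 among all 37 sets. The count minimum leaves out sets with few or no counts. The median of the 19 sums was 439 CPM, and they ran from 5.98 CPM for the Mir450 copies to 4222 CPM for the Mir181a copies. The higher Mir26a copy was 5.31 times the lower by mean CPM, against a median of 2.71 and a range from 1.05 to 103 over the sets. Mir26b alone exceeded the sum of every one of the 19 sets.

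**Figure D5:**
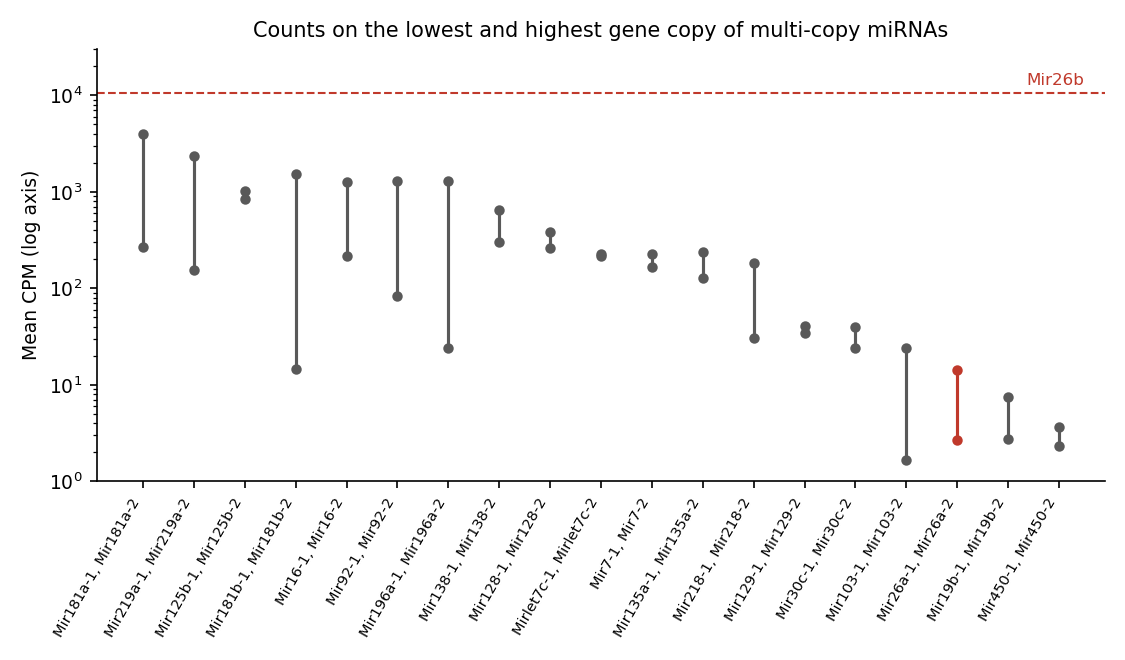
Mean CPM on a log axis of the lowest and the highest gene copy (points joined by a line) for the 19 sets of gene copies that all passed 10 counts in each library, ordered by summed CPM. The Mir26a genes (red) lie at 2.66 and 14.1 CPM, and the dashed line marks Mir26b at 10548 CPM, above every copy shown.

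Other miRNA genes tied to REST held fewer counts than Mir26b. The list held genes of miR-124, miR-9, miR-132, miR-212 and miR-153, neuronal miRNAs known as targets of REST repression, and 8 of the 9 listed genes were analysed here. They summed to 1326 and 1340 CPM in the libraries, a mean of 1333 ± 9.91, against 10564 ± 1221 for the miR-26 genes. Mir153 led at 508 ± 0.78 CPM, then Mir132 at 394 ± 14.2 and Mir9-3 at 394 ± 29.7. Of the 8 genes, 5 passed 10 counts in each library. Of these 5, 1 differed between the libraries by more than 0.5 log2 units, beside 14.0% of all genes tested: Mir124a-2, with 31 and 15 counts, named for this after its values were seen. The miR-124 genes, and likewise the miR-9 genes, encode a mature strand in common as the Mir26a genes do, and their counts have the same limit. The sums of the lists therefore compare counted reads only.

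Seed matches were sought in the REST pathway to show which of its mRNAs could pair with the miR-26 5p strands. These strands were not counted apart from the 3p strands. The reverse complement of the seed, TACTTGA, was searched on the transcript strand in the longest 3′ UTR of each gene in M21. It occurred in 9.67% of 21013 UTRs, and with the following A (TACTTGAA) in 4.19%. Of 11 listed genes it occurred in 4: Ctdsp2, Rest, Rcor1 and Ezh2. The list was drawn up from known miR-26 biology, so this count is no independent evidence of targeting. Of the 3 host genes, only Ctdsp2 had a match, and the UTRs searched of Ctdsp1 (1701 nt) and Ctdspl (3349 nt) did not hold these letters. The Ctdsp2 UTR searched was that of a 3-exon coding transcript, which does not span Mir26a-2, and not of the 8-exon one. The sites of the REST pathway follow, with the match in capitals.
Ctdsp2, chr10:126997550-126997576, plus strand: tcccaagtgttgctctTACTTGAtttg
Rest, chr5:77283317-77283344, plus strand: aattggcttagtaaatTACTTGAAgaat
Rcor1, chr12:111114695-111114722, plus strand: ccacgtaagcacctgtTACTTGAAtatt
Long UTRs hold the match more often: among UTRs of 0.8 to 1.25 times the length, TACTTGA occurred in 23.4% for Ctdsp2, 22.9% for Rest, the repressor itself, and 26.0% for Rcor1, its corepressor. For Ezh2, the Polycomb methyltransferase, with a UTR of 402 nt, this share was 2.87%. The matches of Rest, Rcor1 and Ezh2 had the following A, and for TACTTGAA the shares were 10.6%, 12.1% and 1.21%. The miR-26 5p strands have this seed in common, so a match does not tell miR-26a from miR-26b, and no mRNA level was measured.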

How the data were processed

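The authors deposited raw counts of reads per miRNA gene for 2 libraries, on mm10 and annotation M4, as stated per the file headers. Aligner, counter and settings: not given in the sources used here. The column used as same-strand count held 7019469 and 5738209 counts on genes, and 1 count was worth 0.142 and 0.174 CPM. Strand and the read classes were inferred from the values. CPM was computed from that total. Names and positions came from GENCODE M21 (GRCm38), to which 1894 of 1973 genes matched without version; the other 79 held 8 counts.

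Members and lists were chosen with earlier results of these data known. Genes named were the miR-26 genes, their 2 neighbours above and below in level, the 3 nearest to Mir26b in replicate difference, and up to 3 leading members of each list. No test was run: there is 1 condition, and an exact two-sided sign-flip test over 2 libraries cannot give less than p = 0.5. The labels call the libraries biological replicates of separate tissue samples. Replicate differences used TMM factors from edgeR 4.0.16 (R 4.3.3) over the genes that reached 10 counts in both libraries, and were tested on simulated data: over 371 genes, true changes of 1 and -1 gave medians of 0.99 and -1.10. Hairpins were compared on both strands among the 1894 matched genes only, leaving out overlapping loci. A further gene listed for the seed search is not reported here. Other steps used Python 3.11.15 and scipy 1.17.1. DESeq2 1.42.0 size factors, total counts, other pseudocounts, filters, columns and totals, and leaving out each library were the alternatives.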

Additional observations from a re-analysis of the deposited data

Results flagged for a closer look

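The class of reads mapped to several places lies outside the gene counts and held 3921182 reads in replicate 1 and 3310889 in replicate 2. It is given here because it is a large signal that no gene value includes. Its content by miRNA was not measured, and the share of miR-26a-5p in it was not tested.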

How the results depend on the processing

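The order of the 3 miR-26 genes and the signs of both ratios and of the 3 replicate differences were the same under every alternative run. Without Mir10a in the total, the levels were 3.34 (Mir26a-1), 17.8 (Mir26a-2) and 13272 CPM (Mir26b), and the lists summed to 13293 (miR-26), 1676 (REST), 1431 (Pank) and 804 CPM (Mir128); these follow from the smaller total. With all reads of the table as the total, the levels were 1.39, 7.40 and 5538 CPM, which follows from the larger total. The unstranded column gave 1315 CPM for the REST list and ranks of 367 for Mir26a-1 and 299 for Mir26a-2. Among genes whose hairpin has no 20 nt in common with another, these ranks were 275 and 223, as fewer genes are ranked, and Mir26b stayed at 16. Leaving out each library gave ranks of 349 to 354 for Mir26a-1, 282 to 289 for Mir26a-2 and 14 to 18 for Mir26b. The replicate difference of Mir26b was 0.24 with total counts and 0.18 without the count filter. Under these settings that of Mir26a-1 was -0.040 and -0.095, and that of Mir26a-2 was -0.11 and -0.16. Each setting moved the 3 genes in the same direction, which follows from the changed scaling of the libraries. No paired analysis was possible because there is 1 group. With 15 to 103 counts, depth limits the Mir26a values.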

Other observations

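Over all 1894 matched genes, the share that passed the count minimum differed with the longest stretch in common with another miRNA hairpin. Of 876 genes with a stretch of 22 nt or more, the class of Mir26a-1 and Mir26a-2, 69 (7.88%) passed 10 counts in each library. Of 931 genes with less than 18 nt, the class of Mir26b, 278 (29.9%) did. The highest gene of the first class was Mir181a-1 at 3953 CPM, and 31 genes of the second class, Mir26b among them, exceeded it. Among the genes that passed, the medians were close, at 94.4 and 95.6 CPM. The first class also holds large families of repeated genes, and no cause was tested. These classes were set after the tables were seen.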
